A study of Mus musculus with 4 samples.

Results

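The genes described here are the constant region genes of mouse immunoglobulins and Jchain: Ighm, Ighd, Igha, Ighg1, Ighg2b, Ighg2c and Ighg3 for the heavy chain, Igkc and Iglc2 for the light chain, and the joining chain. They were chosen by symbol, and all 10 were found among the 31054 features of the matrices. The lungs came from male C57BL/6 mice that were 19 months old when treatment with BPTES, a small-molecule inhibitor of the glutaminase GLS1, or with DMSO, its vehicle, began. Treatment lasted 1 month, and each group has 2 libraries (BPTES 1 and 2, DMSO 1 and 2) made by 10x Genomics 3′ sequencing of sorted lung cells, with 20000 CD45-negative and 9000 CD45-positive cells of a tissue mixed in each. CD45 is the surface protein of blood-derived cells. The labels number the samples and do not name the animals, so the p-values measure the spread between these libraries.

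An antibody joins a pair of identical heavy chains to a pair of identical light chains. A B cell first makes IgM and, by splicing of the same transcript, IgD. Class switching then joins the same variable region to a constant gene farther along the locus, which gives IgG, IgE or IgA. Plasma cells are the end stage of this line, and they give much of their messenger RNA to the antibody they secrete. IgM pentamers and IgA dimers are held together with the joining chain, which the polymeric immunoglobulin receptor of mucosal epithelium binds to carry them into secretions, among them those of the airways. A light chain is kappa or lambda, and most mouse antibodies carry kappa. An unrearranged heavy chain locus can also give transcripts that hold a constant region without a variable segment.

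The heavy chain genes lie on the minus strand of chromosome 12 in the order Ighm, Ighd, Ighg3, Ighg1, Ighg2b, Ighg2c, Ighe and Igha, and in the mm10 build Ighm spans chr12:113418558-113422730 and Igha chr12:113254830-113260236 (GENCODE M21). Igkc lies at chr6:70726435-70726966 on the plus strand, Iglc2 at chr16:19198396-19200351 on the minus strand, and Jchain at chr5:88519809-88527891 on the minus strand. The last 57 coding bases of the secreted forms are shown for a feature shared by IgM and IgA, which carried most plasma-like cells in these libraries. Ighg2b and Ighg2c lack it. The capitals mark the cysteine codon TGC just before the last amino acid codon, in the tail by which IgM and IgA bind the joining chain. The Ighm stretch lies at chr12:113420867-113420923, that of Igha at chr12:113258768-113258824, that of Ighg2b at chr12:113306389-113306445 and that of Ighg2c at chr12:113287389-113287445, each 5′ to 3′ on the coding strand.
Ighm: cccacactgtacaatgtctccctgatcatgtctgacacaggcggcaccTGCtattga
Igha: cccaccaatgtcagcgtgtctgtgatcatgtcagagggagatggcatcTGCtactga
Ighg2b: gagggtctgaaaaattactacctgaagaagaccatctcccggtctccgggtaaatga
Ighg2c: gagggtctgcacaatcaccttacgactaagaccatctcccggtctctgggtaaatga

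The lambda constant genes are shown over the same length because reads from their 3′ ends decide which of them a UMI is counted for. Iglc2 (chr16:19198536-19198592) and Iglc3 (chr16:19065365-19065421) were identical over these bases and shared 96.2% of their whole coding sequence. Iglc1 (chr16:19061752-19061808) had 12 mismatches to Iglc2, which the capitals mark, and shared 73.7% of its aligned coding sequence with it. How the counting split reads between Iglc2 and Iglc3 is not given in the sources used here, so values of Iglc2 alone are uncertain and lambda values below sum Iglc1, Iglc2 and Iglc3.
Iglc1: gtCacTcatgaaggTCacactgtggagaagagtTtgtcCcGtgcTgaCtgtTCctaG
Iglc2: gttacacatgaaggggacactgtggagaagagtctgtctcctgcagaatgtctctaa
Iglc3: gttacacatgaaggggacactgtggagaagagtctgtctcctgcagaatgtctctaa

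The libraries held 16440 to 21986 barcodes and 260346570 to 342107092 unique molecular identifiers (UMIs, each standing for 1 captured transcript molecule), and 14407 to 18860 cells were kept in each. Cells were clustered without the immunoglobulin genes. Their UMIs stayed in the total by which the other genes of a cell were scaled, so they could still affect the classes. Of 63895 kept cells, 4337 were B-like (713, 629, 1392 and 1603 in BPTES 1, BPTES 2, DMSO 1 and DMSO 2) and 71 were plasma-like (17, 22, 9 and 23). The B-like cells carried their markers: Cd79a, a signalling chain of the B cell receptor, stood between 1596 and 1860 CPM (the UMIs of a gene scaled to a common total of UMIs for every class and library), and Pax5, the B cell identity factor, between 689.7 and 742. In plasma-like cells the endoplasmic reticulum chaperone Mzb1 stood between 1133 and 2385 CPM and Pax5 between 0 and 10.3. The median plasma-like cell had 56233 to 82409 UMIs, against 11241 to 12026 in B-like cells. Barcode sequences found in more than 1 library numbered 575, and no barcode was plasma-like in more than 1 library. UMIs at 3′ ends count molecules, so a ratio of UMIs between constant genes is not scaled by gene length. This does not hold for variable genes, whose segment lies ahead of the constant region and away from the 3′ end.

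Nearly every plasma-like cell was given over to 1 heavy chain gene. Among the 68 plasma-like cells with at least 10 heavy chain constant UMIs, the leading constant gene held a median of 99.99% of a cell's heavy chain UMIs, and the lowest share was 77.0%. Igha led in 34 cells, Ighm in 28, Ighg2c in 3, Ighg2b in 2 and Ighg3 in 1. Ighd, Ighg1 and Ighe, the gene of IgE, led in no cell. The median plasma-like cell gave 55.9% of all its UMIs to the 10 genes. The 3 cells under 10 heavy chain UMIs were shallow, with a median of 1344 UMIs.

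The isotype of the plasma-like cells differed between the libraries. Igha, the constant gene of IgA, led in 15 of 16 cells of BPTES 1, 12 of 20 of BPTES 2, 2 of 9 of DMSO 1 and 5 of 23 of DMSO 2. These shares were 93.8% (exact 95% binomial interval 69.8 to 99.8), 60.0% (36.1 to 80.9), 22.2% (2.81 to 60.0) and 21.7% (7.46 to 43.7), and the intervals cover counting error only. Both BPTES libraries thus had a higher share of Igha cells than both DMSO libraries, and the intervals of BPTES 2 and each DMSO library overlap. Ighm, the constant gene of IgM, led in 0 cells of BPTES 1, 5 of BPTES 2, 6 of DMSO 1 and 17 of DMSO 2. The 6 IgG cells were 1 Ighg3 cell in BPTES 1, 1 Ighg2b and 2 Ighg2c cells in BPTES 2, 1 Ighg2b cell in DMSO 1 and 1 Ighg2c cell in DMSO 2.

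**Figure D1:**
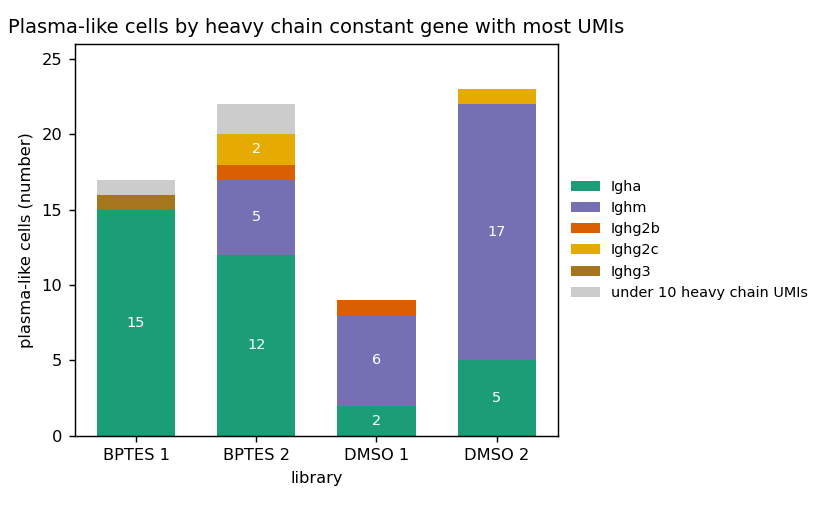
Number of plasma-like cells in each library by the heavy chain constant gene with most UMIs in the cell; grey marks cells under 10 heavy chain UMIs. Igha leads in 15 and 12 cells of the BPTES libraries and in 2 and 5 of the DMSO libraries, and Ighm in 0 and 5 against 6 and 17.

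Summed over cells, the UMIs also put both BPTES libraries above both DMSO libraries for Igha, although DMSO 2 then stood above DMSO 1. Igha made up 99.6% of the heavy chain UMIs of plasma-like cells in BPTES 1, 43.5% in BPTES 2, 12.1% in DMSO 1 and 16.9% in DMSO 2. The mean share was 71.5% ± 39.7 (SD, n = 2) over the BPTES libraries and 14.5% ± 3.40 (SD, n = 2) over the DMSO libraries, a difference of 57.05 percentage points, with p = 0.333 in a two-sided exact permutation test, the smallest p that 2 libraries against 2 can give. Ighm made up 0.0939%, 36.5%, 71.5% and 72.9% in the same order of libraries, 53.9 percentage points lower on average with BPTES (the exact permutation p was again 0.333). The groups did not overlap for either gene, and the BPTES libraries lay far apart from each other: without BPTES 1 the Igha difference was 29.0 points and without BPTES 2 it was 85.1 points. IgG genes together held 0.324%, 19.96%, 16.4% and 10.2%, and the groups overlapped (exact permutation p = 1). In BPTES 1, where Ighm led in no plasma-like cell, that gene still stood at 113 CPM in these cells, against 41210.3 CPM in BPTES 2, 112475 CPM in DMSO 1 and 120580 CPM in DMSO 2.

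The plasma-like cells fell into a pair of clusters, and in BPTES 2 most Igha cells lay in the smaller. The larger, with 46 cells (10, 8, 8 and 20), was led by Mzb1, Derl3 and Prg2, and its median cell gave 63.3% of its UMIs to the 10 genes. The smaller, with 25 cells (7, 14, 1 and 3), had UMIs of the proliferation gene Mki67 in 68% of cells, against 32.6% in the larger, and gave a median of 23.7% of its UMIs to the 10 genes. Igha led in 6 of 7, 11 of 12, 1 of 1 and 1 of 3 cells of the Mki67-rich cluster, which in the DMSO libraries holds too few cells for a comparison of isotypes. In the larger cluster Igha led in 9 of 9 cells of BPTES 1, 1 of 8 of BPTES 2, 1 of 8 of DMSO 1 and 4 of 20 of DMSO 2. In BPTES 2, therefore, 11 of the 12 Igha cells sat in the Mki67-rich cluster, and within the larger cluster BPTES 2 had an Igha share (12.5%) like that of DMSO 1 (12.5%) and DMSO 2 (20%).

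Some barcodes rich in immunoglobulin fell outside the plasma-like class, and they touch the isotype counts. UMIs of all 8 plasma cell markers (Mzb1, Xbp1, Derl3, Tnfrsf17, Prdm1, Sdc1, Irf4 and Eaf2) were found in 102 barcodes, of which 56 were plasma-like, 5 B-like and 22 had been removed as doublets. The removal was uneven: BPTES 1, BPTES 2, DMSO 1 and DMSO 2 had 34, 28, 12 and 28 such barcodes before it and 19, 24, 12 and 25 after it. Counting all 102 such barcodes, Igha led in 26 of 34 in BPTES 1, 15 of 28 in BPTES 2, 2 of 12 in DMSO 1 and 8 of 28 in DMSO 2. The shares of 76.5%, 53.6%, 16.7% and 28.6% again did not overlap between the groups. Ighm led in 6, 10, 8 and 19 of these barcodes, and in 3, 9, 8 and 17 of those left after doublet removal. Markers of other cells also moved with a library: the 8 classical monocyte markers summed to 1209 CPM in the plasma-like cells of BPTES 1, against 268 CPM in BPTES 2, 518 CPM in DMSO 1 and 258 CPM in DMSO 2, with none of the 8 at 0 in BPTES 1 and 1, 2 and 2 at 0 in the others. The 8 AT2 markers summed to 229 and 230.2 CPM in the plasma-like cells of BPTES 1 and BPTES 2 and to 83.0 and 117 CPM in DMSO 1 and DMSO 2, with 0, 1, 2 and 2 of them at 0. The 8 alveolar fibroblast markers summed to 229 and 327 CPM with BPTES and to 897 and 531 CPM with DMSO, with 3, 3, 0 and 0 at 0. Both of these lists separated the groups. So did the general capillary endothelial list, at 26.3 and 25.0 CPM with BPTES and 27.7 and 34.7 CPM with DMSO. The plasmacytoid dendritic list overlapped, at 1225 and 858 CPM with BPTES and 1094 and 1219 CPM with DMSO. The 8 T cell markers summed to 278 CPM in BPTES 2 and to 73.1, 64.1 and 87.0 CPM in BPTES 1, DMSO 1 and DMSO 2, with 0, 1, 5 and 0 at 0. The part of these lists in the isotype counts was not tested.

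Kappa was the light chain of nearly all plasma-like cells. Lambda genes led in 2 cells of BPTES 1, 2 of BPTES 2, 0 of DMSO 1 and 1 of DMSO 2, 5 of 68 cells in all. The share of light chain UMIs that were lambda ran from 0.605% in DMSO 1 and 2.93% in DMSO 2 to 7.11% in BPTES 2 and 21.7% in BPTES 1. The groups did not overlap, and the difference of 12.7 percentage points had the smallest exact permutation p the design allows, 0.333. It was 5.34 points without BPTES 1 and 19.97 points without BPTES 2. In BPTES 1, 1 cell was led by Iglc1 and 1 by Iglc2, in BPTES 2 both were led by Iglc1, and in DMSO 2 the cell was led by Iglc3. Iglc1 stood at 39073, 20443, 527 and 793 CPM in BPTES 1, BPTES 2, DMSO 1 and DMSO 2, Iglc2 at 26629, 1169.9, 1436 and 2139 CPM, and Iglc3 at 368, 467, 441 and 8569 CPM. Iglc1 was thus high in both BPTES libraries, Iglc2 in BPTES 1 and Iglc3 in DMSO 2, and the split between Iglc2 and Iglc3 is uncertain as said above. Igkc stood at 237792, 288411, 394969 and 380525 CPM in BPTES 1, BPTES 2, DMSO 1 and DMSO 2, lower in both BPTES libraries.

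Jchain was high in plasma-like cells of every library and of nearly every isotype. Its level was 47750.3 CPM in BPTES 1, 30666 CPM in BPTES 2, 41234 CPM in DMSO 1 and 42273 CPM in DMSO 2, so the groups overlapped. By isotype, the median cell held 35211 CPM of Jchain in the 34 Igha cells, 39268 CPM in the 28 Ighm cells, 32527 CPM in the 3 Ighg2c cells and 26830.0 CPM in the 2 Ighg2b cells. The Ighg2b and Ighg2c cells, whose secreted chains end without the cysteine codon shown above, thus carried Jchain RNA within the range of the Igha cells (5454 to 95622 CPM). The single Ighg3 cell lay below that range, at 182 CPM of Jchain and 248 heavy chain UMIs. Set against the heavy chain, the median cell had 33.0 Jchain UMIs per 100 heavy chain UMIs when Igha led, 25.5 when Ighm led, 21.6 for Ighg2c and 18.0 for Ighg2b.

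No fold change was tested in plasma-like cells, because DMSO 1 held 9 of them and at least 10 per library were required for a fit. Their share of CD45-positive cells was 0.399%, 0.465%, 0.207% and 0.402% in BPTES 1, BPTES 2, DMSO 1 and DMSO 2. The log2 ratio of BPTES over DMSO was 0.47 (SE 0.48), with an adjusted p of 0.523 in edgeR's quasi-likelihood test over 11 CD45-positive classes. It was 0.11 without DMSO 1, 1.06 without DMSO 2, 0.96 with doublets kept (adjusted p = 0.0628 in edgeR), 0.10 at a Leiden resolution of 2 and −0.11 for cells with UMIs of 4 or more plasma cell markers. The B-like share was lower in both BPTES libraries, at 16.7% and 13.3%, than in DMSO 1 (31.9%) and DMSO 2 (28.0%). That log2 ratio was −0.996 (SE 0.32, adjusted p = 0.0185 in the same edgeR fit), and without BPTES 1 or without BPTES 2 the adjusted p rose to 0.227 and 0.438.

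Most B-like cells were unswitched in all libraries. Among B-like cells with at least 10 heavy chain UMIs, Ighm led in 564 of 618 cells of BPTES 1, 494 of 546 of BPTES 2, 979 of 1154 of DMSO 1 and 1208 of 1355 of DMSO 2. Ighd led in 40, 44, 172 and 137 cells. A switched gene led in 14, 8, 3 and 10 cells, which is 2.27% (exact 95% binomial interval 1.24 to 3.77) of BPTES 1, 1.47% (0.635 to 2.87) of BPTES 2, 0.260% (0.0536 to 0.758) of DMSO 1 and 0.738% (0.354 to 1.35) of DMSO 2. Both BPTES libraries were above both DMSO libraries, but of the 4 pairs of intervals only those of BPTES 1 and DMSO 1 do not overlap. The switched cells were 9 Igha, 5 Ighg1, 17 Ighg2b, 2 Ighg2c and 2 Ighg3 cells.

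The level of Ighm in B-like cells lay in a narrow range across libraries and those of the switched genes did not. Ighm stood at 2967, 3168, 3093 and 3507 CPM and Ighd, the constant gene of IgD, at 947, 919.8, 1174 and 1041 CPM in BPTES 1, BPTES 2, DMSO 1 and DMSO 2. Igha stood at 323, 15.3, 4.52 and 12.6 CPM, Ighg2c at 12.7, 837, 7.57 and 2.97 CPM, and Ighg2b at 35.4, 54.8, 201.5 and 12.1 CPM. The highest values of these 3 genes came from a few barcodes: 2 cells held 76.5% of the Igha UMIs of BPTES 1, 1 cell held 99.6% of the Ighg2c UMIs of BPTES 2 and 1 cell held 94.5% of the Ighg2b UMIs of DMSO 1. Jchain behaved alike, at 107, 90.6, 124 and 24.5 CPM, with 72.3%, 93.3%, 98.0% and 83.1% of its UMIs in 2 cells per library. Between 2 and 5 B-like cells per library had UMIs of 6 or more plasma cell markers.

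Counted by cells rather than UMIs, Jchain and Igha in B-like cells can be set beside cells that do not make antibody. With each cell thinned to 3000 UMIs, Jchain had a UMI in 1.95%, 1.06%, 0.914% and 1.00% of B-like cells and in 1.73%, 0.450%, 1.19% and 1.14% of general capillary endothelial-like cells of the same libraries. Igha had a UMI in 5.86%, 2.30%, 0.997% and 2.43% of thinned B-like cells, against 5.73%, 1.58%, 0.413% and 1.66% in general capillary endothelial-like cells. Without thinning, the Igha shares were 23.7%, 7.79%, 3.74% and 8.42% in B-like cells (median 11241 to 12026 UMIs) and 19.3%, 4.83%, 1.37% and 6.04% in the capillary cells (median 11578 to 12585 UMIs). The thinned Igha share of B-like cells was close to the capillary share in BPTES 1 and above it in the other libraries, with the largest ratio in DMSO 1, and both classes put the libraries in the same order. The thinned Jchain share of B-like cells was above the capillary share in the BPTES libraries and below it in the DMSO libraries. Without thinning, the Jchain shares were 6.45%, 4.93%, 2.95% and 4.43% in B-like cells and 4.90%, 2.28%, 2.97% and 3.52% in the capillary cells. The B-like share was then above the capillary share in DMSO 2 as well, so this order depends on the thinning. Ighm, by contrast, had a UMI in 96.2% to 98.3% of thinned B-like cells and in 2.03% to 6.99% of thinned capillary cells.

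No immunoglobulin gene passed the test between BPTES and DMSO in B-like cells. All 10 genes were tested and 0 were called at an adjusted p of 0.05 in edgeR's quasi-likelihood test, where 0% of 12760 genes were called. At an unadjusted p under 0.05 there were 877 genes, among them 4 of the 10 (Igha, Ighg1, Ighg2c and Ighd). DESeq2 called 27 genes higher and 7 lower, and 0 of the 10. With no filter on low counts edgeR called 8 of the 10, and 170 genes higher and 62 lower of 20831. Without cells with UMIs of 6 or more plasma cell markers, an alternative chosen after seeing the data, it called Ighg2b (0.0158% of genes called). The log2 ratio of Ighg2b then turned from lower to higher with BPTES. Ighm had a log2 ratio of −0.08 (SE 0.07) and Igkc of 0.21 (SE 0.09), whereas Ighg2c had 6.38 (SE 1.59, adjusted p = 0.505) and Igha 4.31 (SE 1.13, adjusted p = 0.505). Without BPTES 2 the ratio of Ighg2c was 1.31, and without BPTES 1 that of Igha was 0.84; the highest with 1 library left out were 7.36 and 5.25. Leaving out 1 library made calls appear among the 10: 6 without DMSO 2 (1.05% of all genes tested were called), 4 without DMSO 1 (0.537%), 2 without BPTES 2 (0.139%) and 1 without BPTES 1 (0.554%). In simulated data of these B-like libraries the test recovered 23% of genes changed 2-fold and 95% of genes changed 4-fold. The simulation gave every gene the same dispersion and changed only genes above a minimum count. These shares therefore do not apply to genes whose UMIs lie in a few cells, such as Ighg2c and Igha.

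B-like cells were not uniform in Ighm and Ighd. A finer clustering, again without immunoglobulin genes, gave 4 clusters with at least 20 cells in every library. The largest, with Fcer2a (CD23, a low-affinity IgE receptor) and Bank1 among its leading genes, held 540, 436, 988 and 1062 cells, and its Ighm stood at 2550, 2627, 2454 and 2584 CPM with Ighd at 1119, 1086, 1305 and 1243 CPM. A cluster led by Ms4a1, Mzb1, Fcrl5 and Il5ra held 65, 48, 81 and 209 cells, with higher Ighm (4182, 5087, 6289 and 4477 CPM) and lower Ighd (261, 309, 446 and 546 CPM). Its UMIs of Ighm per UMI of Ighd came to 16.1, 16.4, 14.1 and 8.20, against 2.28, 2.42, 1.88 and 2.08 in the Fcer2a cluster, without overlap. A cluster with Ly6d, Klhl14 and Siglecg among its leading genes (44, 62, 120 and 123 cells) combined Ighm of 5823, 5680, 6026 and 6039 CPM with Ighd of 796, 809, 1036 and 864 CPM. The remaining cluster was shallow, at 1938 to 2883 median UMIs, and its Ighm of 1079, 1470, 642 and 11469 CPM was raised in DMSO 2 by a cell with UMIs of all 8 plasma cell markers.

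**Figure D2:**
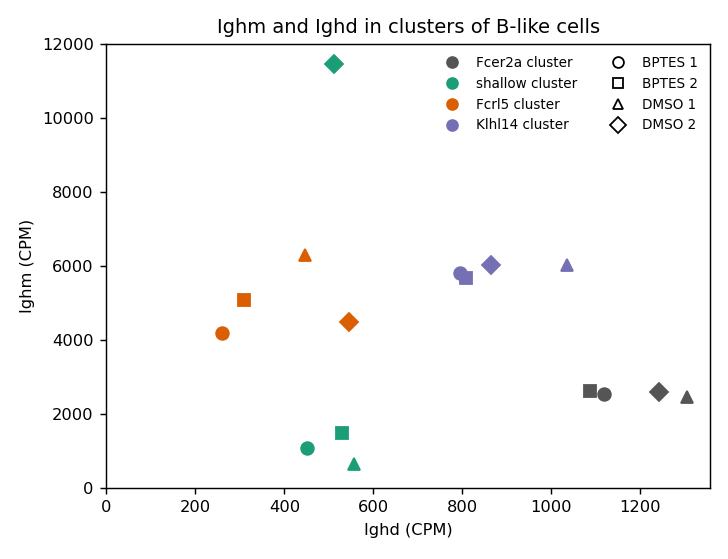
Ighm against Ighd (CPM) in the 4 clusters of B-like cells, 1 point per cluster and library. The Fcrl5 cluster has 261 to 546 CPM of Ighd and the Fcer2a cluster 1086 to 1305 CPM; the shallow cluster of DMSO 2 stands apart at 11469 CPM of Ighm.

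Switched B-like cells made up a larger share of the Fcrl5 cluster than of the Fcer2a cluster in every library. A switched gene led in 6, 4, 1 and 6 of its cells with at least 10 heavy chain UMIs, against 8 of 508, 3 of 417, 2 of 943 and 4 of 1014 such cells in the Fcer2a cluster. In the Klhl14 cluster it led in 0 of 44, 62, 120 and 122 cells. As shares these were 9.84% against 1.57%, 8.33% against 0.719%, 1.32% against 0.212% and 2.99% against 0.394%. In DMSO 1 the order rests on 1 of 76 cells of the Fcrl5 cluster. That cluster held 1, 1, 2 and 0 cells with UMIs of all 8 plasma cell markers, and these were not left out. The cluster contributed 9.12% and 7.63% of the B-like cells of the BPTES libraries and 5.82% and 13.04% of those of the DMSO libraries.

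Lambda RNA in B-like cells had a part that came with kappa cells. Summed over cells, lambda genes made up 16.9%, 15.8%, 22.6% and 16.02% of light chain UMIs, but they led in 5.72%, 6.19%, 7.18% and 4.92% of cells with at least 10 light chain UMIs. Of 3152 B-like cells led by Igkc with at least 30 of its UMIs, 91.2% also had an Iglc2 UMI and 94.1% an Iglc3 UMI, with medians of 5 and 4 UMIs, whereas 44.4% had an Iglc1 UMI. These kappa cells held 65.8% of all lambda UMIs of B-like cells. In 209 lambda-led cells the medians were 35 Iglc1 UMIs, 23 Iglc2 UMIs and 4 Iglc3 UMIs. The median of Iglc3 was 4 UMIs in both, but it had a UMI in 94.1% of kappa cells and 73.2% of lambda cells, with means of 5.95 and 13.1 UMIs. BPTES and DMSO overlapped for the lambda share of B-like cells (exact permutation p = 0.667). The Klhl14 cluster had a lambda share of 24.0%, 34.0%, 37.2% and 37.3% of light chain UMIs, above the 14.6% to 16.4% of the Fcer2a cluster. The Fcrl5 cluster had 16.2%, 8.70%, 43.4% and 15.01%, and stood highest in DMSO 1, where its Iglc2 was 4942.5 CPM. It held 2 cells with UMIs of all 8 plasma cell markers there. In DMSO 1, 1 barcode held 5779 of 20252 Iglc2 UMIs. Plasma-like, other kept and removed barcodes held 4.87%, 5.19% and 7.54% of them, so that barcode was B-like and enters the lambda shares of DMSO 1.

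Outside the B and plasma lineages every class carried some immunoglobulin RNA, and its isotype followed the library. In 11 CD45-negative classes (endothelial, fibroblast, epithelial and pericyte-like), leaving out cells with over 1% of their UMIs in the 10 genes, Igha stood between 11.4 and 22.2 CPM in BPTES 1, 3.46 and 6.49 in BPTES 2, 0.233 and 1.67 in DMSO 1 and 2.98 and 7.56 in DMSO 2. The ranges of BPTES 1 and DMSO 1 overlapped with no other library. The 8 CD45-positive classes other than B-like gave 14.6 to 23.4 CPM of Igha in BPTES 1, 4.14 to 7.74 in BPTES 2, 0 to 7.17 in DMSO 1 and 3.30 to 11.9 in DMSO 2. There DMSO 1 overlapped with BPTES 2 and DMSO 2, since its cDC2-like cells stood at 7.17 CPM against a median of 0.852 CPM over the 8 classes. Igkc had medians of 33.5, 27.2, 38.3 and 49.7 CPM over the CD45-negative classes, and Jchain of 3.63, 1.82, 1.67 and 3.46 CPM.

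**Figure D3:**
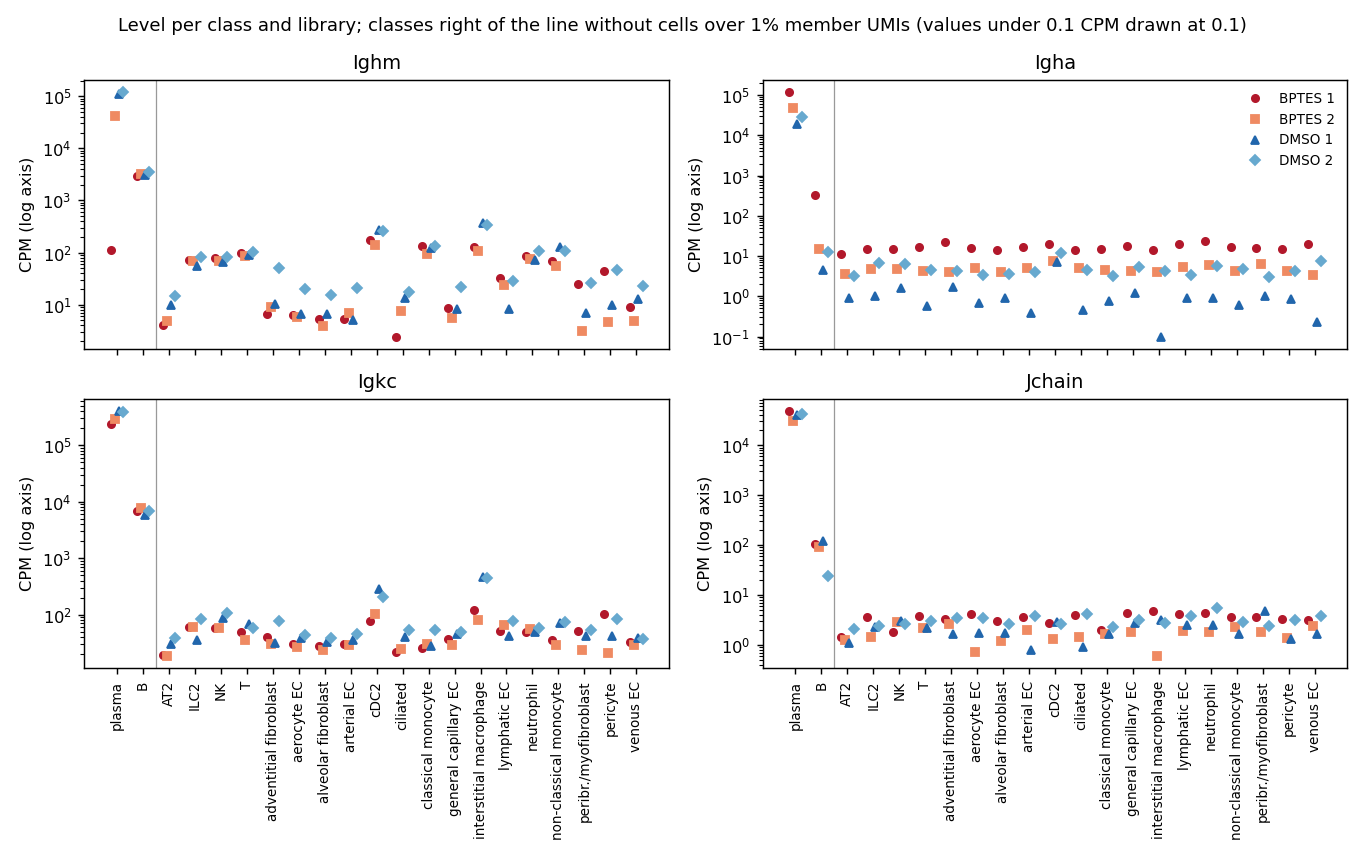
Level of Ighm, Igha, Igkc and Jchain (CPM, log axis) in plasma-like, B-like and 19 other classes, 1 point per library; cells over 1% of UMIs in the 10 genes are left out right of the grey line. Igha is highest in BPTES 1 and lowest in DMSO 1 in all 19 other classes.

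The mix of heavy chain UMIs in the CD45-negative classes resembled that of the plasma-like cells of the same library in part. Igha made up 58.0% (exact 95% binomial interval 56.3 to 59.7) in BPTES 1, 34.2% (31.9 to 36.6) in BPTES 2, 6.07% (5.05 to 7.23) in DMSO 1 and 13.97% (12.94 to 15.04) in DMSO 2. The libraries stood in the same order by UMIs of plasma-like cells, but by numbers of plasma-like cells DMSO 1 (22.2%) was slightly above DMSO 2 (21.7%). Ighm made up 33.1%, 47.4%, 47.1% and 73.5%. The intervals cover counting error only and treat UMIs as independent, although some lay together in a cell. In these classes 1 cell held 105 of 1082 Ighm UMIs in BPTES 1 and 1 cell held 240 of 3152 in DMSO 2. In BPTES 1, Ighm made up 33.1% of heavy chain UMIs in the CD45-negative classes and 0.0939% in plasma-like cells, and it made up 69.0% in the B-like cells of that library.

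**Figure D4:**
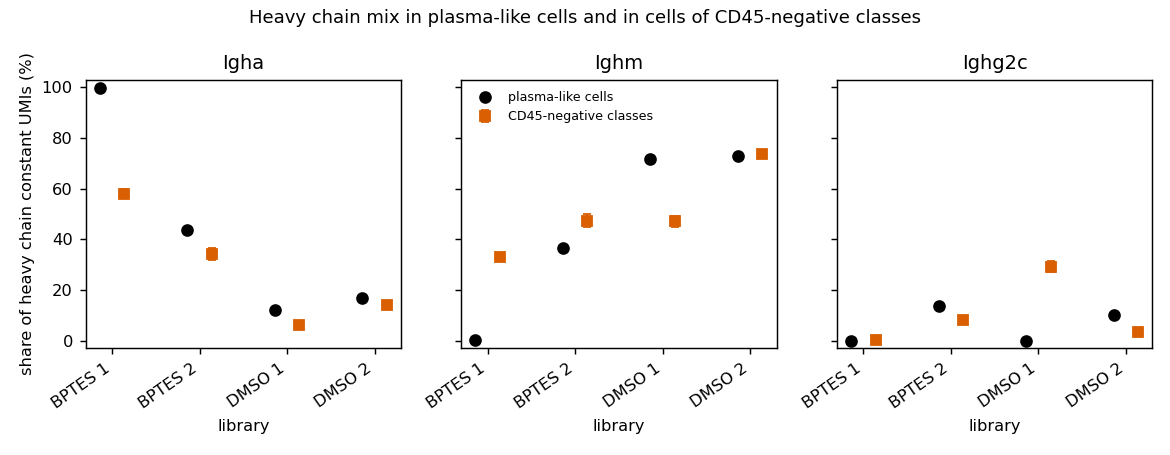
Share of heavy chain constant UMIs (%) that were Igha, Ighm or Ighg2c in plasma-like cells (circles) and in CD45-negative classes (squares, with exact 95% binomial intervals), by library. The intervals cover counting error only. Igha falls from 58.0% in BPTES 1 to 6.07% in DMSO 1 in the CD45-negative classes, and Ighg2c of DMSO 1 stands at 29.2% there and near 0 in plasma-like cells.

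Ighg2c in DMSO 1 did not follow the plasma-like cells. It made up 29.2% (27.2 to 31.3) of the heavy chain UMIs of the CD45-negative classes and 0.0120% of those of the plasma-like cells. In the other libraries it made up 0.245%, 8.14% and 3.54% in the CD45-negative classes of BPTES 1, BPTES 2 and DMSO 2. The 1494 Ighg2c UMIs of DMSO 1 were spread over 1155 barcodes, with at most 39 in a barcode, and plasma-like cells held 0.870% of them. In DMSO 2, by contrast, 1 barcode held 23658 of 24179 Ighg2c UMIs. No barcode of DMSO 1 therefore held the bulk of its Ighg2c RNA.

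A handful of barcodes carried most immunoglobulin RNA counted in other classes. Of 42840 cells in named classes other than B-like and plasma-like, 28 had over 1% of their UMIs in the 10 genes (8, 10, 4 and 6), and they held 83.3%, 90.3%, 74.1% and 68.9% of the UMIs of these genes in those classes. Of the 28, 17 had UMIs of all 8 plasma cell markers and 19 lay in monocyte-like, macrophage-like or dendritic cell-like classes. Their median depth was 70038, 68715, 52195 and 26496 UMIs, against 15463 to 17486 for the other cells, and their median doublet score was also higher (0.0377 to 0.0763 against 0.0155 to 0.0206). Whether these barcodes held a pair of cells was not tested.

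Ighm stood above Igkc in some other CD45-positive classes. In classical monocyte-like cells it stood at 135, 92.0, 122 and 131 CPM while Igkc stood at 25.9, 30.2, 27.8 and 53.8 CPM, that is 522, 304, 438 and 244 Ighm UMIs per 100 Igkc UMIs. T-like cells had 195, 240.1, 135 and 175 per 100. Non-classical monocyte-like cells had 192, 188, 176 and 147, and neutrophil-like cells 177, 133, 147 and 181. CD45-negative classes together had 26.5, 22.3, 22.4 and 46.5 per 100, and B-like cells under the same limit of 1% had 56.6, 60.2, 55.7 and 62.1. That limit left 371, 322, 782 and 847 B-like cells, those with less immunoglobulin RNA. All B-like cells had 44.2, 40.4, 53.1 and 50.6 per 100. Over the CD45-negative classes Igkc ran from 19.1 to 104 CPM in BPTES 1, 18.6 to 64.8 in BPTES 2, 30.3 to 45.2 in DMSO 1 and 37.1 to 83.6 in DMSO 2. Igkc in classical monocyte-like cells lay inside that range in 3 libraries and under it in DMSO 1, while Ighm stood above Igkc in all 4. With cells thinned to 3000 UMIs, 24.4% to 31.6% of classical monocyte-like cells had an Ighm UMI, against 1.37% to 4.77% of alveolar fibroblast-like cells, with median depths before thinning of 25230 to 28972 and 19403 to 21415 UMIs.

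**Figure D5:**
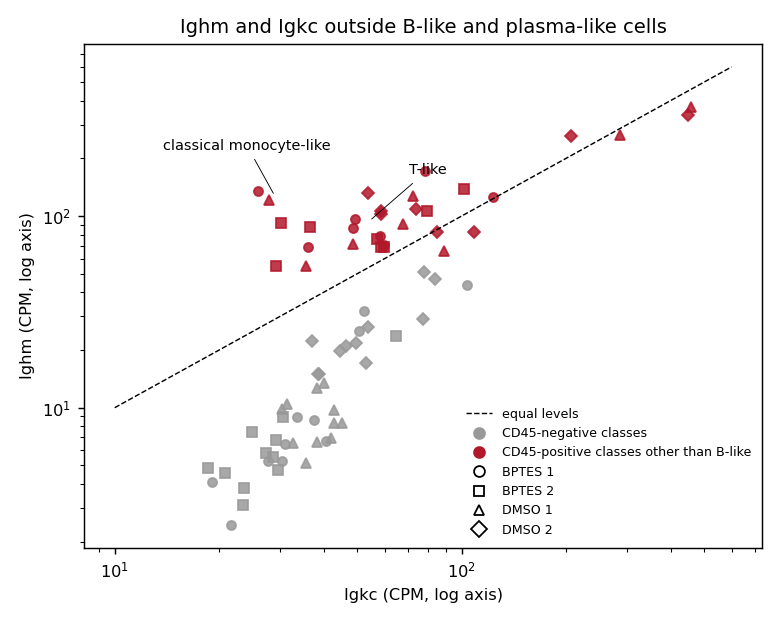
Ighm against Igkc (CPM, log axes) in the 19 fitted classes other than B-like, 1 point per class and library, without cells over 1% of UMIs in the 10 genes. CD45-negative classes lie under the line of equal levels. Classical monocyte-like, non-classical monocyte-like, neutrophil-like and T-like cells lie above it in all 4 libraries.

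UMIs counted for heavy chain variable genes differed among the classes in which Ighm stood above Igkc. Over the 4 libraries, classical monocyte-like cells had 0.153 variable gene UMIs per 100 heavy chain constant UMIs (12 of 7841, exact 95% Poisson interval 0.0791 to 0.267) and T-like cells 0.403 (0.255 to 0.604). Neutrophil-like cells, with 159 Ighm UMIs per 100 Igkc UMIs, had 1.72 (1.35 to 2.17) and ILC2-like cells, with 117, had 1.28 (0.683 to 2.19). Non-classical monocyte-like cells, with 167, had 0.561 (0.342 to 0.866) and cDC2-like cells, with 133, had 0.891 (0.697 to 1.12). The name of the ILC2-like class is uncertain, since T cells scored second and Icos, Il23r, Camk4 and Cd40lg were among its leading genes. B-like cells under the limit of 1%, which were 2322 of 4337, had 4.15 (4.01 to 4.29), and the CD45-negative classes together 1.26 (1.06 to 1.49). Ighd UMIs per 100 Ighm UMIs came to 1.26 in classical monocyte-like cells, 4.42 in T-like cells, 4.89 in neutrophil-like cells and 9.31 in ILC2-like cells. They came to 5.34 in non-classical monocyte-like cells, 9.42 in cDC2-like cells and 46.0 in B-like cells under the limit of 1%. A variable segment lies ahead of the constant region, which has 1367 coding bases in secreted Ighm and 1034 in Igha, away from the sequenced 3′ end. The ratios of variable to constant UMIs can therefore depend on the isotype mix of a class, and this was not tested. The intervals cover counting error only, and the source of this Ighm RNA was not tested.

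BPTES was compared with DMSO in the 20 classes that held 50 cells or more in each library. Of 128 tests of the 10 genes, 3 were called at an adjusted p of 0.05 in edgeR's quasi-likelihood test, where 0.145% of all gene tests were called. Ighm and Igkc were higher with BPTES in classical monocyte-like cells (0.122% of genes called), with log2 ratios of 2.19 (SE 0.21, adjusted p = 0.0289) and 5.31 (SE 0.53, adjusted p = 0.0304). Igkc stood there at 883, 2296, 27.8 and 53.8 CPM with all cells included, and 4 barcodes of the BPTES libraries and 1 of DMSO 2 had over 1% of their UMIs in the 10 genes. Without such barcodes, an alternative added after seeing the data, the log2 ratio was −0.52 for Igkc (adjusted p = 0.393) and −0.14 for Ighm (adjusted p = 0.720). Both calls were also lost without DMSO 1 or without DMSO 2, with log2 ratios of 2.14 and 2.23 for Ighm and 4.92 and 5.86 for Igkc, about as large as with all 4 libraries. They were lost too with a mitochondrial limit of 5%, at 1.14 for Ighm and 3.74 for Igkc, and with doublets kept, at 2.40 and 5.77.

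The remaining call was lower Ighd with BPTES in interstitial macrophage-like cells (0.881% of genes called there). Ighd stood at 18.2 and 10.96 CPM with BPTES and at 79.1 and 77.4 CPM with DMSO, a log2 ratio of −2.42 (SE 0.22, adjusted p = 0.0114), and without DMSO 2 the ratio was −2.47 with an adjusted p of 0.0714. The 8 B cell markers moved with it: none was at 0 in any library, their summed level in these cells was 232 and 185 CPM with BPTES and 698 and 776 CPM with DMSO, and cells with UMIs of 3 or more of them made up 5.88% and 5.94% against 15.9% and 17.0%. Those cells held 129 of 140, 105 of 109, 244 of 248 and 392 of 410 Ighd UMIs. Without them Ighd stood at 1.61, 0.435, 1.85 and 4.60 CPM and was too low to be tested.

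In the pool of classes other than B-like and plasma-like, 8 of the 10 genes could be tested and 0 were called by edgeR (0% of 20883 genes), and 3 had an unadjusted p under 0.05 (Igkc, Ighd and Jchain), as had 3664 of all genes tested. DESeq2 called 2, Igkc and Ighd, among 680 genes higher and 477 lower of 18049. Igkc stood at 406, 576, 237 and 267 CPM with all barcodes and at 42.7, 36.6, 56.8 and 69.1 CPM without those over 1%, so its order between the groups turned over. Ighg1 and Ighg3 were under the filter on low counts. In all kept cells together, all 10 genes were tested, 0 were called by edgeR (0% of 21469 genes), and 3 had an unadjusted p under 0.05 (Ighd, Ighm and Ighg1), as had 3754 of all genes tested. DESeq2 called Ighd, among 719 genes higher and 550 lower of 17723. Ighm stood at 200.1, 397, 683 and 936 CPM (log2 ratio −1.38, SE 0.37, adjusted p = 0.233) and Ighd at 36.4, 27.2, 89.2 and 76.8 CPM (log2 ratio −1.33, SE 0.15, adjusted p = 0.168). B-like cells held 83.0%, 82.3%, 84.6% and 78.5% of the Ighd UMIs of all barcodes. Their share of CD45-positive cells had a log2 ratio of −0.996, while within them Ighd had a log2 ratio of −0.22 (−0.31 to −0.13 with 1 library left out). B-like cells held 31.8%, 16.8%, 31.3% and 23.2% of the Ighm UMIs and plasma-like cells 0.159%, 32.9%, 45.8% and 54.9%.

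Genes that work with the antibody genes did not pass the test in B-like cells either. Of 21 tested genes of the secretory machinery of plasma cells, 24 of B cell receptor signalling, 17 of class switching and the germinal centre, 15 of plasma cell identity and survival, 12 Fc receptors and transporters of antibody, 6 signals of B cell survival and homing and 14 genes of age-associated and B-1 B cells, edgeR called 0 in each list. Genes with an unadjusted p under 0.05 were 4 of 15 in plasma cell identity and survival, 3 of 14 in age-associated and B-1 genes, 4 of 24 in receptor signalling, 2 of 12 in Fc receptors, 3 of 21 in secretory machinery, 1 of 17 in class switching and 0 of 6 in survival and homing, against 6.87% of all genes tested. The median log2 ratios of the lists ran from −0.10 to 0.15, against −0.00 over all genes tested.

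Across 96 sums of UMIs per class and library (24 classes, plasma-like cells not among them), the genes outside the immunoglobulin loci whose log2 level was most like that of Jchain were Tnfrsf17 (Pearson r = 0.774), Derl3 (0.665) and Mzb1 (0.657). For Ighm they were Haao (0.898), Map4k1 (0.898) and Ero1lb (0.883). Points of 1 library share its depth and its free RNA, so these values are descriptions. The class with the highest level was B-like cells for the 3 genes most like Ighm, and interstitial macrophage-like, non-classical monocyte-like and B-like cells for those most like Jchain. In interstitial macrophage-like cells of DMSO 2, Jchain stood at 1165 CPM, and at 2.72 CPM without cells over 1%. In non-classical monocyte-like cells of DMSO 1 it stood at 1324 and 1.67 CPM. Of the cells over 1% in these classes, 2 and 4 had UMIs of all 8 plasma cell markers, which include Tnfrsf17 and Derl3. Their part in the levels of Tnfrsf17 and Derl3 was not tested.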

How the data were processed

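The deposited matrices hold counts of UMIs per gene and barcode, made by the authors with Cell Ranger 8.0.1 on mm10, per the submitters' processing notes; how reads shared by near-identical genes were counted is not given in the sources used here. The 10 genes and all lists were chosen with earlier results of these data known. Barcodes with at least 500 genes, 1000 UMIs and at most 10% mitochondrial UMIs were kept, and doublets were removed by simulated doublet scores at 0.4% per 1000 cells. Cells were clustered (Leiden, resolution 1, igraph 0.11.9, Python 3.11.15) on 2000 variable genes without the immunoglobulin genes and named from marker lists. The plasma-like class came from splitting 1 cluster once, a choice made after seeing the data, and 26.1% of cells stayed unnamed. Barcode sequences found in several libraries were treated as separate cells.

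UMIs were summed per library and class and tested with edgeR 4.0.16 (quasi-likelihood, TMM, filterByExpr, R 4.3.3) in classes with at least 50 cells in each library, with Benjamini-Hochberg adjustment over all genes of a class. A call is an adjusted p under 0.05. Shares were compared by two-sided exact permutation over 2 against 2 libraries, whose smallest p is 0.333. A cell's isotype is the heavy chain constant gene with most UMIs, given at least 10. DESeq2 1.42.0 and other settings served as alternatives. The edgeR step was tested on simulated data. Genes named are the 10 genes, other constant genes of the loci, called genes of the fixed lists and the 3 genes most correlated with Jchain and with Ighm over log2(CPM + 1). Other genes named are markers and the leading genes of clusters. Transcript sequences and positions are from GENCODE M21 on mm10.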

Additional observations from a re-analysis of the deposited data

How the results depend on the processing

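The 3 calls among 128 tests of the 10 genes (0.145% of all gene tests called) became 15 of 112 with DESeq2 (1.02%), 68 of 184 with no filter on low counts (2.63%), 8 of 128 with immunoglobulin genes used for clustering (0.193%) and 5 of 115 without cells over 1% (0.195%). Without cells with UMIs of 3 or more B cell markers edgeR made 0 (0.105% of all gene tests, and 49 tests of the 10 genes had an unadjusted p under 0.05). With 1 library left out there were 13 to 21 of 136 to 147 (0.21% to 1.03%). Of the 3, 3 were shared without BPTES 1 or BPTES 2, 1 without DMSO 1, 0 without DMSO 2, and 1 each with a mitochondrial limit of 5% and with doublets kept. In B-like cells alone, leaving out cells with UMIs of 6 or more plasma cell markers gave 1 call of 10 (0.0158% of genes called), Ighg2b, at a log2 ratio of 1.98 (−1.23 with all cells, and −2.15 to 1.91 with 1 library left out, 1.91 without DMSO 1). With a replicate block there were 16 calls of 128 (0.906%) and the B-like share had a log2 ratio of −1.002 (adjusted p = 0.0533 in edgeR). Deviations of same-numbered libraries from their group means had a correlation of −0.100. With 2 libraries per group this value is the same for both numbers, so it cannot decide whether the numbers pair the samples. Crossing the numbers gave 33 calls of 128 (1.29%). Over pooled other classes DESeq2 made 2 calls (6.41% of genes called) and leaving out a library 0 to 2, the 2 without DMSO 2 (1.11%). Over all kept cells these were 1 (7.16%) and 0 to 0. The B-like share also missed the threshold at −0.99 with a mitochondrial limit of 5%, −0.98 with immunoglobulin genes in the clustering and −0.995 at resolution 2, and ran from −1.17 to −0.84 with 1 library left out. The switched share of heavy chain UMIs in B-like cells, 10.9 points higher with BPTES, was 1.37 counted by cells, 3.04 with immunoglobulin genes in the clustering, 2.95 without cells with 6 or more plasma cell markers and 6.22 to 15.6 with 1 library left out. The lambda share of B-like cells turned from −2.99 to 0.105 with immunoglobulin genes in the clustering and ran from −6.29 to 0.318 with 1 library left out (0.318 without DMSO 1). In classical monocyte-like cells Ighm turned to −0.072 without the 2 richest cells, −0.14 without cells over 1% and −0.067 without cells with B cell markers, and Igkc to −0.52 and −0.29 in the last pair. Differences in percentage points that turned in plasma-like cells were IgG (2.90 by cells, −12.95 to 6.69 with 1 library left out, 6.69 without BPTES 1) and Ighd (0 by cells, −0.0114 with immunoglobulin genes in the clustering, −0.00328 to 0.0144 with 1 library left out, −0.00328 without BPTES 2). In B-like cells they were Ighm (3.88 by cells, 0.193 with immunoglobulin genes in the clustering, 1.01 without cells with plasma cell markers) and IgG (−1.09 to 15.5 with 1 library left out, −1.09 without BPTES 2). The causes were not tested. The B cell marker, 1%, plasma marker and crossed-number alternatives were chosen after seeing the data. The 71 plasma-like cells limit the precision of isotype shares.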

Other observations

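Variable genes were read in the same cells, and the genes named here were chosen after their values were seen. Among plasma-like cells with at least 10 UMIs of a heavy and of a light chain variable gene, 15, 18, 7 and 19 cells of BPTES 1, BPTES 2, DMSO 1 and DMSO 2 gave 14, 17, 7 and 12 distinct pairs of leading genes. Pairs found in more than 1 cell covered 2, 2, 0 and 11 cells. In BPTES 1 and BPTES 2 these were Igha cells, and in DMSO 2 they were sets of 5, 2 and 2 Ighm cells and of 2 Igha cells. Each of them was counted as a separate cell in the isotype shares and their intervals. Whether cells with the same pair share an origin was not tested. The pair Ighv12-3 with Igkv4-91 was found in 5 Ighm cells of DMSO 2 and in 1 Ighm cell of DMSO 1. The same pair was found in 1, 2, 1 and 3 B-like cells of BPTES 1, BPTES 2, DMSO 1 and DMSO 2. A pair in a B-like cell needed only 1 UMI of each variable gene, so these counts are not on the same footing.

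In B-like cells the pair Ighv1-26 with Igkv1-110 was found in 30 of 772 cells with a pair in DMSO 2 (3.89%), and in 2 of 356, 0 of 284 and 2 of 632 cells of BPTES 1, BPTES 2 and DMSO 1. Here too a pair needed only 1 UMI of each variable gene. Of the 30 cells, 27 lay in the Fcrl5 cluster, where they made up 24.3% of the 111 cells with a pair, against 0 cells in the other three libraries. Ighm led in 27 of the 30. In that cluster Ighv1-26 led in 44 of 141 cells with a heavy chain variable gene in DMSO 2, 0 of 49 in BPTES 1, 3 of 31 in BPTES 2 and 2 of 58 in DMSO 1.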
